A study of Sus scrofa domesticus with 6 samples.

Results

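EPCAM, KRT8, KRT18, KRT19, ELF3, ESRP1, GRHL2, MAL2, SPINT1 and ST14 are general epithelial identity genes, and their mRNA was followed here in irradiated and pravastatin-treated pig small intestine. They were chosen by name as genes that gauge the epithelium in a piece of tissue, and each was read from its own row of the deposited gene table. All 10 were found among the 30352 named genes, and all 10 were among the 18197 genes kept by a filter on low counts.

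Epithelial cells are held together as sheets by adhesion molecules, are stiffened by keratin filaments, and sort proteins to an apical and a basal face. A small set of transcription factors and splicing regulators keeps these features switched on in most epithelia, and the same genes are nearly silent in muscle, fibroblasts and blood cells. In the small intestine, the epithelium covers villi and crypts, is renewed from crypt stem cells, and is a main site of injury by ionizing radiation.

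Small intestine came from 6 wild-type Göttingen minipigs, a small breed of domestic pig (Sus scrofa domesticus), each aged 6 months. The IR_Pra group (2 animals) received 15 Gy of 60Co gamma rays to the abdomen and oral pravastatin, a cholesterol-lowering statin, at 40 mg a day given in 2 doses a day for 2 weeks. The IR group (2 animals) received the same 15 Gy and no drug is named for it, and the control group (2 animals) is labelled only as control. Tissue was taken on day 14 and sequenced in bulk, 1 library for each animal. The treated group is called both PS and Pra in the labels, and both were read as pravastatin. The position along the small intestine, the tissue layers in each piece and any sham exposure or vehicle are not given in the sources used here.

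Total counts were between 48600424 and 51106541 in IR_Pra libraries, 62165352 and 73975174 in IR libraries, and 57905213 and 62071404 in control libraries. The tissue label was set beside VIL1, CDH17, CDX2 and FABP2, genes of intestinal epithelium, and the lowest value of any of the 4 in any library was 17.2 CPM. These values show intestinal epithelium in each library and were not a test of small against large intestine. The library of IR animal 2 stood apart from the other 5 in epithelial genes. In it, VIL1, an actin bundler of the brush border, had 122 CPM, against 1308 CPM in IR animal 1, 1645 and 1373 CPM in IR_Pra animals, and 2183 and 1906 CPM in control animals. Mitochondrial protein genes took 5.30% and 5.90% of counts in IR_Pra libraries, 3.91% and 1.48% in IR libraries, and 8.35% and 5.87% in control libraries, and their part in the results was not tested. The library of IR animal 1 stood apart in another way: its log2 ratios to control fell with transcript length across all genes (Spearman's rho -0.35, against -0.04 in IR animal 2, across genes, which are not independent). The tests of the 10 genes are therefore also given without each IR animal. So are the estimates of the other genes called in IR against control that are named below, and the medians of the gene lists around the 10.

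CPM, counts scaled to library size by trimmed mean of M values (TMM), are used below to compare 1 gene between libraries. FPKM, which are per kilobase of transcript, are used to compare genes with each other. A gene is called changed where edgeR's quasi-likelihood test gave a Benjamini-Hochberg adjusted p under 0.05 over all 18197 genes. Because the tissue is bulk, fewer epithelial cells and less RNA per cell cannot be told apart in any value below.

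**Figure D1:**
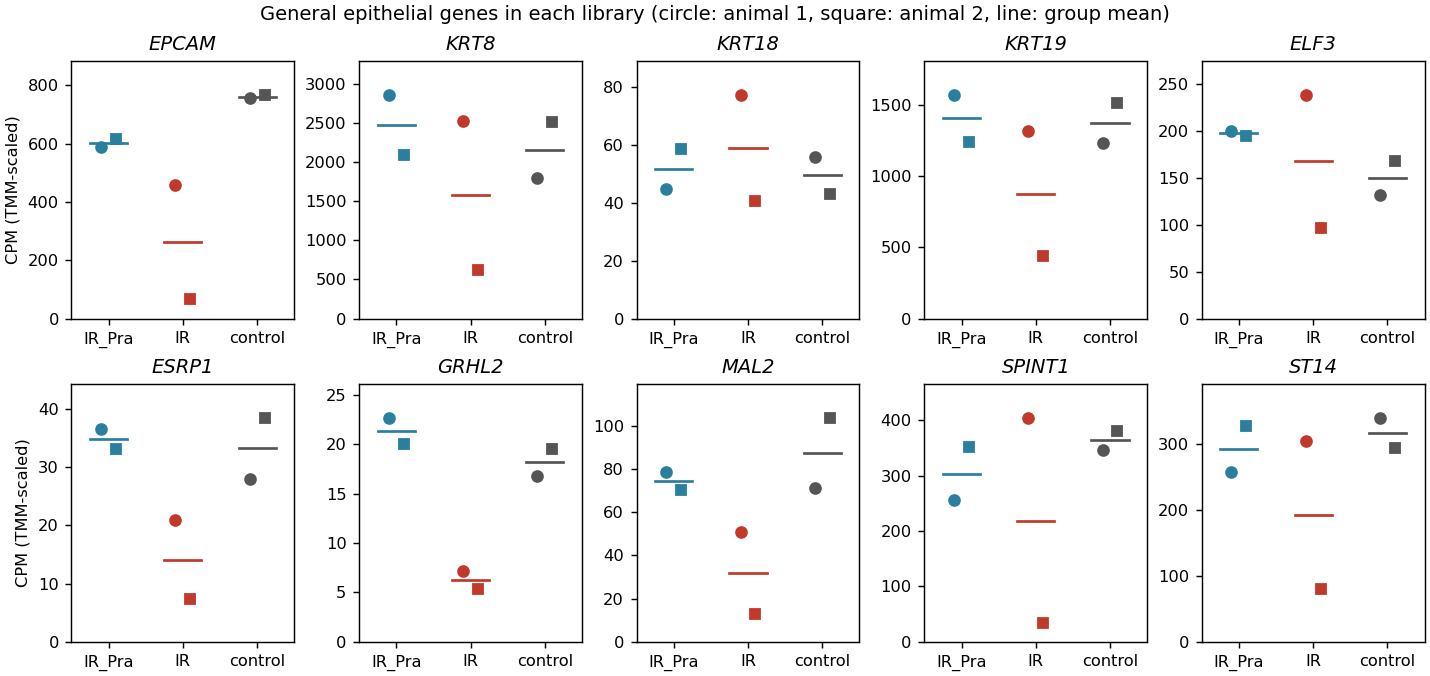
CPM (linear axis from 0) of each of the 10 epithelial genes in each library, with IR_Pra, IR and control from left to right; circles are animal 1, squares animal 2 and lines group means. In all 10 panels the lowest point is the red square of IR animal 2, and GRHL2 is the gene in which both IR animals lie close together, at 7.21 and 5.32 CPM.

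EPCAM (Entrez 403163, Sscrofa11.1 chr3:93169800-93185221) encodes a homophilic adhesion molecule of the lateral membrane, and its loss in humans causes a congenital enteropathy. It had 589 and 614 CPM in IR_Pra animals, 456 and 67.9 CPM in IR animals, and 754 and 768 CPM in control animals. The 3 groups did not overlap: control was highest, IR_Pra lay between, and both IR animals were lowest, with IR animal 2 far below IR animal 1. IR animal 1 held 60.0% and IR animal 2 held 8.92% of the control mean. The log2 fold change of IR against control was -1.54 ± 0.81 (SE), with an adjusted p of 0.254 in edgeR's quasi-likelihood test, so EPCAM was not called.

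The keratins of simple epithelia form filaments from a type II and a type I partner. KRT8 (type II, Entrez 100152077, chr5:18172423-18180277) lies 37.4 kb from its type I partner KRT18 (Entrez 100126286, chr5:18217686-18221432), while the type I KRT19 (Entrez 100515339, chr12:21115453-21119115) is on another chromosome. KRT8 had 2859 and 2090.0 CPM in IR_Pra animals, 2519.7 and 627 CPM in IR animals, and 1793 and 2507 CPM in control animals. KRT19 had 1573 and 1243 CPM in IR_Pra animals, 1315 and 440.4 CPM in IR animals, and 1231 and 1516 CPM in control animals. For both genes IR animal 1 was near or inside the control range, and IR animal 2 alone was low, at 29.1% of the control mean for KRT8 and 32.1% for KRT19. KRT18 had 44.7 and 58.7 CPM in IR_Pra animals, 77.3 and 40.6 CPM in IR animals, and 56.0 and 43.1 CPM in control animals. Unlike its partner, KRT18 was highest in IR animal 1, and in IR animal 2 it still held 82.0% of the control mean. None of the 3 keratins was called in IR against control: the log2 fold changes were -0.45 ± 0.72 for KRT8, 0.25 ± 0.37 for KRT18 and -0.65 ± 0.58 for KRT19 (SE), with adjusted p of 0.705, 0.674 and 0.488 in edgeR's quasi-likelihood test.

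GRHL2 (Entrez 100525287, chr4:35368788-35565394) encodes a grainyhead-family transcription factor that activates junction genes such as CDH1. It had 22.7 and 20.1 CPM in IR_Pra animals, 7.21 and 5.32 CPM in IR animals, and 16.8 and 19.5 CPM in control animals. The groups did not overlap, and here both IR animals were low together, at 39.6% and 29.3% of the control mean. GRHL2 fell in IR against control, with a log2 fold change of -1.54 ± 0.28 (SE, 95% interval -2.22 to -0.85) and an adjusted p of 0.0427 in edgeR's quasi-likelihood test. It was the 1 called gene of the 10, and it was lower in 2 of 2 IR animals. The call stood without IR animal 1 (-1.78, adjusted p 0.00996) and without IR animal 2 (-1.34, adjusted p 0.0318). It was lost without control animal 1 (adjusted p 0.242), control animal 2 (0.206), IR_Pra animal 1 (0.115) or IR_Pra animal 2 (0.114), fits in which no gene at all was called in edgeR's quasi-likelihood test. GRHL2 has the longest transcript of the 10, 5622 nt, longer than that of 80.04% of genes. With the length trend of each library removed, its log2 fold change was -1.24 and its adjusted p was 0.0781 in edgeR's quasi-likelihood test. The call was also lost with the replicate block (adjusted p 0.0889), with the 4 libraries of the comparison alone (0.112), and in limma on log2(FPKM + 1) (0.0679) and log2(FPKM + 0.1) (0.0582).

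ESRP1 (Entrez 100512961, chr4:41993944-42061706) encodes a splicing regulator that maintains epithelial splice forms. It had 36.5 and 33.1 CPM in IR_Pra animals, 20.8 and 7.41 CPM in IR animals, and 28.0 and 38.5 CPM in control animals. Both IR animals lay below the other 4 libraries, and IR animal 1 lay nearer to them. The log2 fold change of IR against control was -1.23 ± 0.49 (SE), with an unadjusted p of 0.0476 and an adjusted p of 0.162 in edgeR's quasi-likelihood test. ELF3 (Entrez 100524949, chr10:24237852-24242266) encodes an ETS-family factor that, in mice, is needed for villus differentiation. It had 200.1 and 194 CPM in IR_Pra animals, 238 and 96.3 CPM in IR animals, and 132 and 168 CPM in control animals. ELF3 was highest in IR animal 1 and lowest in IR animal 2, so the IR group spanned every other library. Its log2 fold change in IR against control was 0.16 ± 0.44 (SE), with an adjusted p of 0.834 in edgeR's quasi-likelihood test.

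MAL2 (Entrez 100153186, chr4:19593536-19658695) encodes a membrane protein needed for transport to the apical face of polarized human cells. It had 78.6 and 70.5 CPM in IR_Pra animals, 50.8 and 12.7 CPM in IR animals, and 71.5 and 104 CPM in control animals. Both IR animals were below the other 4 libraries, at 58.0% and 14.4% of the control mean, and IR_Pra overlapped control. The log2 fold change of IR against control was -1.47 ± 0.62 (SE), with an adjusted p of 0.179 in edgeR's quasi-likelihood test.

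The last pair is an enzyme and its inhibitor. ST14 (Entrez 100517843, chr9:56888246-56929771) encodes matriptase, a serine protease of the cell surface, and SPINT1 (Entrez 100157387, chr1:130458909-130473791) encodes HAI-1, which inhibits it. ST14 had 258 and 327 CPM in IR_Pra animals, 305 and 79.4 CPM in IR animals, and 339.7 and 295 CPM in control animals. SPINT1 had 255 and 352 CPM in IR_Pra animals, 405 and 33.1 CPM in IR animals, and 346 and 381 CPM in control animals. Both were near the control level in IR animal 1, and in IR animal 2 they held 25.03% of it for ST14 and 9.10% for SPINT1. SPINT1 had the widest gap between the IR animals among the 10 genes, 12.2-fold, and GRHL2 the narrowest, 1.35-fold. The log2 fold changes of IR against control were -0.72 ± 0.60 for ST14 and -0.73 ± 0.98 for SPINT1 (SE), with adjusted p of 0.452 and 0.646 in edgeR's quasi-likelihood test.

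**Figure D2:**
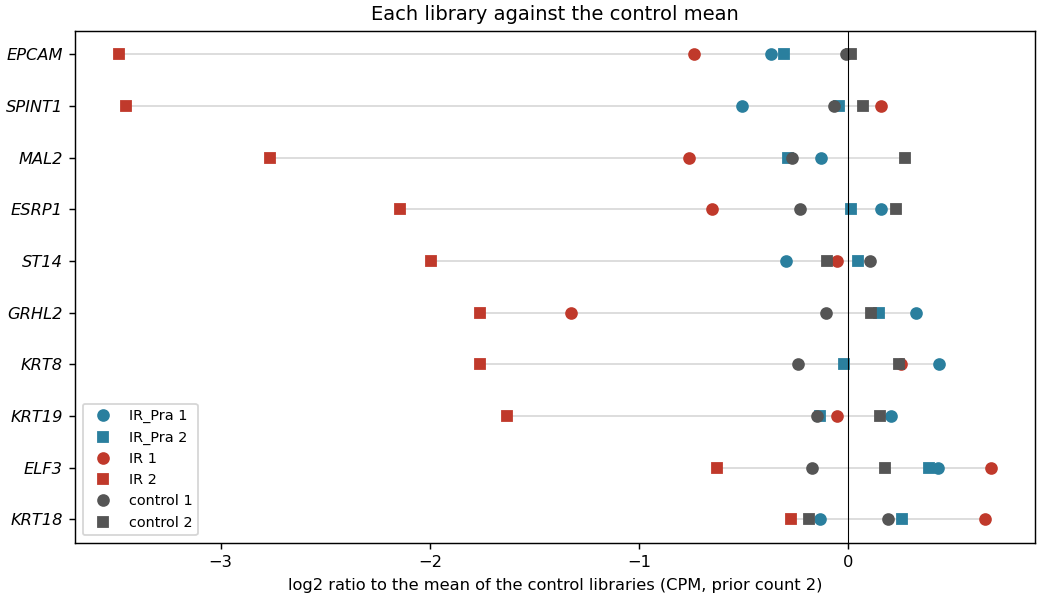
Log2 ratio of each library to the mean of the control libraries for each gene, ordered by the ratio in IR animal 2; red marks are IR, blue IR_Pra and grey control, with circles for animal 1 and squares for animal 2. IR animal 2 runs from -3.49 for EPCAM to -0.27 for KRT18, while IR animal 1 lies on both sides of 0, from -1.33 for GRHL2 to 0.68 for ELF3.

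Set against each other, the IR animals differed in both size and pattern. In IR animal 2 all 10 genes were below both control animals, with a median log2 ratio to the control mean of -1.88, and in each of the 10 genes this was the lowest library. Across all 18197 genes, IR animal 2 was the lowest library for 24% and IR animal 1 for 26.8%. EPCAM and SPINT1 were the most reduced of the 10 in IR animal 2, where 3.16% and 3.26% of all genes had a lower ratio. KRT18 was the least reduced, with 39.1% of all genes below it. In IR animal 1 the median log2 ratio of the 10 was -0.05. There, EPCAM, ESRP1, GRHL2 and MAL2 were below both control animals, KRT19 and ST14 were between them, and KRT8, KRT18, ELF3 and SPINT1 were above both. The 10 genes together took 0.631% and 0.522% of all counts in IR_Pra libraries, 0.467% and 0.144% in IR libraries, and 0.476% and 0.592% in control libraries.

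For IR against control, 1 of the 10 genes was called, lower, beside 6.06% of all genes called in either direction and 2.68% called lower. The groups did not overlap for 4 of the 10, EPCAM, ESRP1, GRHL2 and MAL2, each lower in IR, and 30% of all genes were lower in IR without overlap. Of the 10 estimates 8 were negative, and their median was -0.73, beside 0.03 over all genes. KRT18 and ELF3, the 2 positive ones, turned negative when the length trend was removed, at -0.08 each. Leaving out IR animal 1, so that IR animal 2 was set alone against control and assumed to vary like the other groups, 8 of the 10 were called lower by edgeR's quasi-likelihood test, beside 13.1% of all genes. The largest of these were EPCAM at -3.49 (adjusted p 0.00255), SPINT1 at -3.46 (0.00326) and MAL2 at -2.80 (0.00523), and KRT18 and ELF3 were the 2 that were not called. Leaving out IR animal 2, GRHL2 alone was called, beside 8.93% of all genes called lower, and the median of the 10 was -0.06.

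For IR_Pra against IR, which asks whether the irradiated tissue differed with the drug, 0 of the 10 were called by edgeR's quasi-likelihood test, beside 0.0055% of all genes. At an unadjusted p under 0.05 there were 2, ESRP1 (log2 fold change 1.30 ± 0.50 SE, adjusted p 0.183) and GRHL2 (1.77 ± 0.28 SE, adjusted p 0.0754), beside 24.5% of all genes. DESeq2 called GRHL2 (adjusted p 1.47e-05), beside 16.5% of all genes, and limma on FPKM called none of the 10. EPCAM, ESRP1, GRHL2 and MAL2 were higher in both IR_Pra animals than in both IR animals, and 27.3% of all genes were higher in IR_Pra in that way. The median log2 fold change of the 10 was 0.67, beside -0.02 over all genes. This comparison and the previous one share the IR libraries, so their values are not independent. Without IR animal 1, 9 of the 10 were called higher in IR_Pra, all but KRT18, beside 9.88% of all genes, with EPCAM at 3.15 (adjusted p 0.00442) and ELF3 at 1.04 (adjusted p 0.0354) in edgeR's quasi-likelihood test. Without IR animal 2, GRHL2 alone was called, at 1.57 (adjusted p 0.0332), beside 6.58% of all genes called higher.

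For IR_Pra against control, 0 of the 10 were called by edgeR's quasi-likelihood test, DESeq2 or limma, and none had an unadjusted p under 0.05. Over all genes 0% were called by edgeR, 0.396% by DESeq2, and 3.42% had an unadjusted p under 0.05. EPCAM was lower in both IR_Pra animals than in both control animals, beside 20% of all genes lower without overlap. ELF3 and GRHL2 were higher in both IR_Pra animals, beside 20.8% of all genes higher without overlap. The estimates were small beside their intervals. GRHL2 was measured most closely, at 0.23 with a 95% interval of -0.43 to 0.90, and SPINT1 least closely, at -0.26 with an interval of -2.66 to 2.14. EPCAM was at -0.34, with an interval of -2.28 to 1.60, and the intervals of all 10 included 0.

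**Figure D3:**
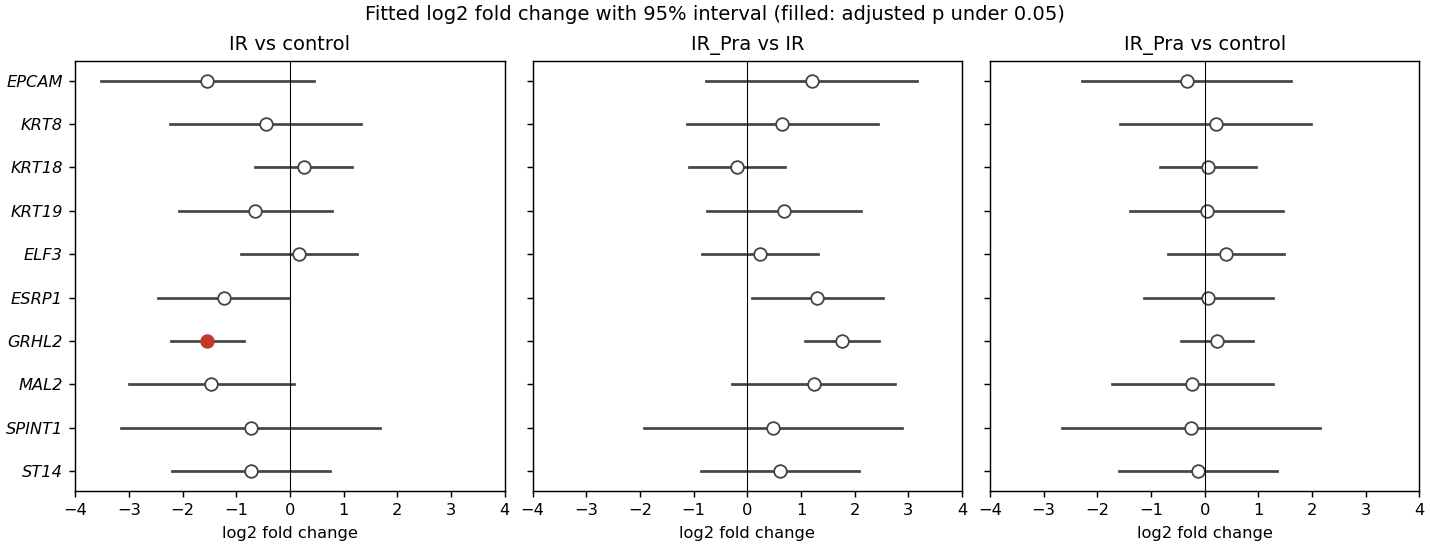
Fitted log2 fold change (points) and 95% interval (lines) of each of the 10 genes in IR vs control, IR_Pra vs IR and IR_Pra vs control; a filled point has an adjusted p under 0.05. GRHL2 in IR vs control, at -1.54, is the 1 filled point, and in IR_Pra vs control every interval crosses 0.

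Within a library, the 10 genes kept part of their order. By FPKM, the order KRT8, KRT19, EPCAM held at the top in all 6 libraries, and ESRP1 and then GRHL2 were the lowest. KRT8 had 1707 and 1216 FPKM in IR_Pra animals, 1226 and 360.3 FPKM in IR animals, and 999.7 and 1421 FPKM in control animals. GRHL2, at the other end, had 4.29 and 3.89 FPKM in IR_Pra animals, 0.977 and 0.972 FPKM in IR animals, and 2.98 and 3.53 FPKM in control animals. Ratios of FPKM within 1 library show which of the genes moved unequally.

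The KRT8 to KRT19 ratio varied least, at 1.68 and 1.56 in IR_Pra libraries, 1.78 and 1.32 in IR libraries, and 1.35 and 1.53 in control libraries. The KRT8 to KRT18 ratio was 53.8 and 30.0 in IR_Pra libraries, 27.4 and 13.0 in IR libraries, and 26.9 and 48.9 in control libraries. Thus the type II keratin was far above KRT18 everywhere, but by an amount that also differed between the control animals. EPCAM over KRT18 was 13.9 and 11 in IR_Pra libraries, 6.20 and 1.76 in IR libraries, and 14.2 and 18.7 in control libraries, and the 3 groups did not overlap. EPCAM over ELF3 was 4.23 and 4.55 in IR_Pra libraries, 2.75 and 1.005 in IR libraries, and 8.26 and 6.59 in control libraries, again without overlap.

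GRHL2 over ELF3 was 0.0413 and 0.0397 in IR_Pra libraries, 0.00968 and 0.0200 in IR libraries, and 0.0469 and 0.0428 in control libraries. The IR libraries were lowest, and in this ratio IR animal 1 was below IR animal 2. GRHL2, at 5622 nt, is longer than ELF3, at 2057 nt, and IR animal 1 is the library whose ratios fell with length. Removing that trend moved the log2 fold change of IR against control for GRHL2 to -1.24 and for ELF3 to -0.08. ST14 over SPINT1, protease over inhibitor, was 0.789 and 0.728 in IR_Pra libraries, 0.587 and 1.89 in IR libraries, and 0.768 and 0.604 in control libraries. It was above 1 only in IR animal 2, where SPINT1 was reduced more than ST14. These ratios were chosen after the values were seen and were not tested.

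**Figure D4:**
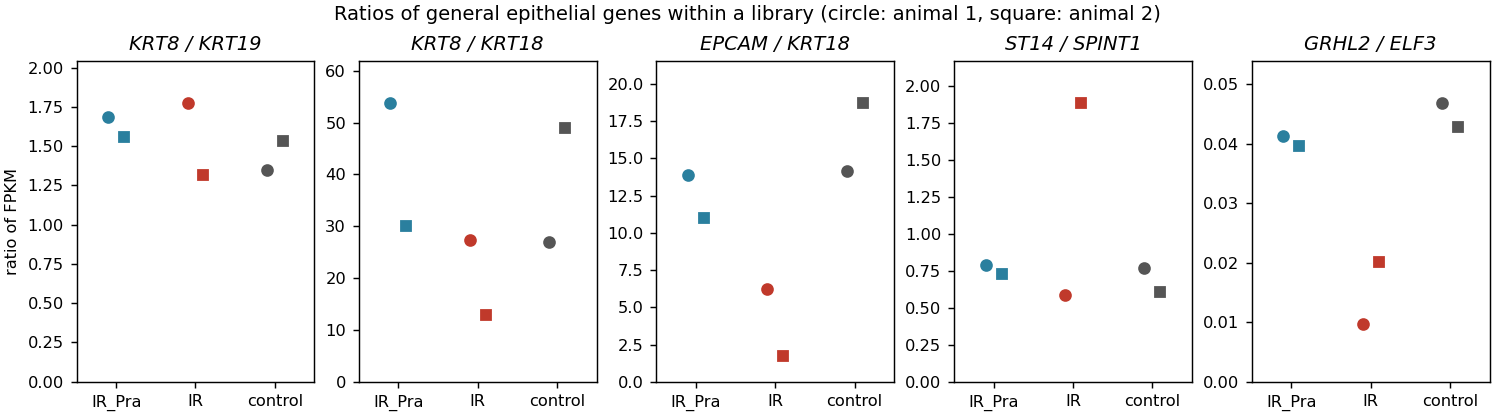
Ratio of FPKM between pairs of the epithelial genes in each library (linear axes from 0), with IR_Pra, IR and control from left to right; circles are animal 1 and squares animal 2. ST14 over SPINT1 is 1.89 in IR animal 2 and at most 0.789 elsewhere, and GRHL2 over ELF3 is at most 0.0200 in IR and at least 0.0397 elsewhere.

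The likeness of the 10 genes to each other is given as Pearson's r of log2 CPM over the 6 libraries and as a description with no p: IR animal 2 is the lowest library for each gene, and all libraries share the TMM scaling. SPINT1 was closest to ST14 (0.99), MAL2 to ESRP1 (0.989), KRT8 to KRT19 (0.988) and EPCAM to MAL2 (0.983). KRT18 followed the others least: its closest gene was ELF3 (0.624), and its r with its partner KRT8 was 0.409. GRHL2 was closest to ESRP1 (0.914). Among 11490 other named genes with a mean of at least 5 CPM, those most like the mean of the epithelial set included MOGAT1 (0.9992), RIDA, CDH17, DPP4, GLOD5, SLC7A9, MPPE1, SOWAHB and MALL (0.9956). CDH17, an intestinal cadherin, and DPP4, a brush-border peptidase, are known from enterocytes. None of these 9 was called in any comparison. MOGAT1, which makes diacylglycerol for fat absorption and storage, had 33.3 and 27.9 CPM in IR_Pra animals, 19.4 and 0 CPM in IR animals, and 21.2 and 38.1 CPM in control animals.

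Of 23 further pan-epithelial genes, all kept, 2 were called lower in IR against control by edgeR's quasi-likelihood test and 0 higher, beside 2.68% of all genes called lower. The groups did not overlap for 15, with 13 lower in IR, beside 30% of all genes. The other 2 were higher in IR, beside 5417 of all 18197 genes. The median log2 fold change of the 23 was -0.84. Their median log2 ratio to the control mean was -0.21 in IR animal 1 and -2.12 in IR animal 2. Without IR animal 1, 20 of the 23 were called lower, beside 13.1% of all genes, and without IR animal 2, 5 of the 23 were, beside 8.93% of all genes. ERBB3, a neuregulin receptor, had 494 and 559.6 CPM in IR_Pra animals, 175 and 65.6 CPM in IR animals, and 789.7 and 908 CPM in control animals (log2 fold change of IR against control -2.82, adjusted p 0.0439). DSP, which anchors keratin to desmosomes, had 581 and 593 CPM in IR_Pra animals, 229 and 92.2 CPM in IR animals, and 872 and 819 CPM in control animals (-2.40, adjusted p 0.0487). Both IR animals were low in these genes, as in GRHL2, and both calls stood without IR animal 1 (-3.70 for ERBB3 and -3.20 for DSP) and without IR animal 2 (-2.28 and -1.89). Like every call in this comparison, these were lost in the 4 fits that left out a control or an IR_Pra animal. The fit without IR animal 2 rests on IR animal 1, the library whose ratios fell with transcript length. Removing that trend took away the call of GRHL2, and its effect on ERBB3 and DSP is not given here. MARVELD2, the tricellulin of tight junctions, had an estimate of -2.03 with an adjusted p of 0.0564, and OVOL2, a repressor of mesenchymal genes, -2.29 with 0.0789. CDH1, the main cadherin of epithelia and a target of GRHL2 in mice, had 468 and 493 CPM in IR_Pra animals, 353 and 74.9 CPM in IR animals, and 555 and 451 CPM in control animals (-1.23, adjusted p 0.275). CLDN4, another GRHL2 target in mice, had 48.3 and 79.0 CPM in IR_Pra animals, 165 and 17.3 CPM in IR animals, and 66.4 and 50.2 CPM in control animals. CLDN4 was highest in IR animal 1, where GRHL2 was at 39.6% of the control mean, and a link between the 2 genes was not tested. CLDN7 had an estimate of -0.84 and CLDN3 one of -0.16, and neither was called.

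Of 9 other keratins matched by symbol, 6 were kept and 0 were called by edgeR's quasi-likelihood test, 1 of them (KRT80) at an unadjusted p under 0.05, beside 30.2% of all genes. KRT20, a type I keratin of differentiated gut epithelium, had 1057 and 739 CPM in IR_Pra animals, 418 and 55.9 CPM in IR animals, and 562 and 834 CPM in control animals. Both IR animals were below the other 4 libraries, and KRT20 was the 1 of the 6 lower in IR without overlap, beside 30% of all genes. The other keratins mostly went the other way: 4 of the 6 estimates were positive. Of the 6, 3 were higher in IR without overlap, beside 5417 of all 18197 genes. The median log2 fold change of the 6 was 0.48, or -0.09 without IR animal 1 and 0.76 without IR animal 2. KRT7, a keratin of glandular ducts, had 4.997 and 4.12 CPM in IR animals and at most 3.32 CPM elsewhere. KRT13, KRT14 and KRT17 were not analysed here.

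Of 9 proteases, inhibitors and receptors around matriptase, 0 were called in IR against control by edgeR's quasi-likelihood test and 3 had an unadjusted p under 0.05, near the 30.2% of all genes. Their median log2 fold change was -0.997, or -2.79 without IR animal 1 and -0.39 without IR animal 2. SPINT2, the inhibitor HAI-2, had 277 and 278 CPM in IR_Pra animals, 297 and 97.8 CPM in IR animals, and 265 and 322 CPM in control animals. PRSS8, prostasin, a protease that works with matriptase, had 196 and 238 CPM in IR_Pra animals, 347 and 36.6 CPM in IR animals, and 257 and 273 CPM in control animals. PRSS8 thus followed SPINT1, slightly above control in IR animal 1 and low in IR animal 2. PRSS22, a tryptase-like protease, was the 1 of the 9 with a positive estimate, 1.002 with an adjusted p of 0.114. MST1R, a receptor of the MET family, was at -1.56 with an adjusted p of 0.140 in edgeR's quasi-likelihood test. Of 8 further genes of apical transport, 0 were called and 0 had an unadjusted p under 0.05, with a median of -1.12, or -2.94 without IR animal 1 and -0.31 without IR animal 2. MALL, a relative of MAL2, had 177 and 139.6 CPM in IR_Pra animals, 114 and 3.76 CPM in IR animals, and 129 and 139 CPM in control animals. In IR animal 2, MALL was thus further below its control values than MAL2 was.

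The last list held repressors of epithelial genes. All 6 (ZEB1, ZEB2, SNAI1, SNAI2, TWIST1 and TWIST2) had positive estimates in IR against control, with a median of 1.05, and 1 was called higher, beside 3.39% of all genes called higher. TWIST1, the called one, had 1.68 and 1.93 CPM in IR_Pra animals, 3.83 and 5.90 CPM in IR animals, and 1.004 and 1.33 CPM in control animals (log2 fold change 2.06, adjusted p 0.0496 in edgeR's quasi-likelihood test). ZEB1, a repressor of CDH1, had 36.8 and 26.1 CPM in IR_Pra animals, 14.9 and 49.1 CPM in IR animals, and 21.7 and 28.0 CPM in control animals. The IR animals were on opposite sides of all other libraries for ZEB1. The summed CPM of the 6 repressors was 97.9 and 76.9 in IR_Pra libraries, 50.04 and 153 in IR libraries, and 61.0 and 68.8 in control libraries, so IR animal 1 had the lowest sum and IR animal 2 the highest. The median of the 6 was 1.35 without IR animal 1 and 0.89 without IR animal 2. TWIST1 was at 2.33 without IR animal 1 and at 1.70 without IR animal 2. These factors are also made by fibroblasts and other mesenchymal cells, whose marker levels follow.

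IR animal 2 was lower in intestinal than in general epithelial genes, a difference that was not tested. Its median log2 ratio to the control mean was -1.88 for the 10 general epithelial genes, -2.12 for the 23 other pan-epithelial genes, -3.15 for 9 genes of small intestinal epithelium and -5.37 for 9 genes of absorptive enterocytes. In IR animal 1 the same 4 medians were -0.05, -0.21, -0.11 and -0.41. The enterocyte list went both ways, with 3 positive and 6 negative estimates in IR against control. Its summed CPM was 16340 and 16290 in IR_Pra libraries, 48380 and 970.2 in IR libraries, and 21920 and 24030 in control libraries. By that sum IR animal 1 was the highest library, although its median was below 0. None of the 18 intestinal and enterocyte genes was called in IR against control by edgeR's quasi-likelihood test. At an unadjusted p under 0.05 there were 1 intestinal and 2 enterocyte genes, beside 30.2% of all genes. CDX2, a factor that specifies intestinal epithelium, had 230.0 and 239.7 CPM in IR_Pra animals, 413 and 53.7 CPM in IR animals, and 219 and 273 CPM in control animals. FABP2, a fatty-acid binder of enterocytes, had 254 and 257 CPM in IR_Pra animals, 444.4 and 17.2 CPM in IR animals, and 107 and 219 CPM in control animals. Both were highest in IR animal 1 and lowest in IR animal 2, as ELF3 was. The 8 crypt and proliferation genes went both ways, and 0 were called by edgeR's quasi-likelihood test. At an unadjusted p under 0.05 there was 1, beside 30.2% of all genes. Their median ratio was 0.31 in IR animal 2 and -0.53 in IR animal 1. LGR5, a marker of crypt stem cells, and SOX9 were below both control animals in both IR animals, while ASCL2 and SMOC2 were above both. Of the 8, 2 were thus lower in IR without overlap, beside 30% of all genes. Another 2 were higher without overlap, beside 5417 of all 18197 genes. Without IR animal 1 the median log2 fold changes were -3.25 for small intestinal epithelium, -5.41 for enterocytes and 0.30 for crypt genes, and without IR animal 2 they were -0.11, -0.44 and -0.54.

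Markers of other cell types also differed between the libraries. Summed CPM of 8 smooth muscle genes was 19520 and 13470 in IR_Pra libraries, 31800 and 67010 in IR libraries, and 5734 and 11760 in control libraries. Summed CPM of 8 fibroblast genes was 7277 and 5112 in IR_Pra libraries, 8987 and 26570 in IR libraries, and 2673 and 3594 in control libraries. For the 10 epithelial genes the sum was 5917 and 5002 in IR_Pra libraries, 5395 and 1410 in IR libraries, and 4768 and 5839 in control libraries. IR animal 2 thus had the highest muscle and fibroblast sums and the lowest epithelial sum, while IR animal 1 had a muscle sum above both control libraries at an epithelial sum between theirs. Of the muscle list 1 of 8 genes (ACTA2) was called higher in IR and of the fibroblast list 0 of 8 by edgeR's quasi-likelihood test, beside 3.39% of all genes called higher. At an unadjusted p under 0.05 there were 7 of 8 fibroblast genes, beside 30.2% of all genes. ACTA2 was called without IR animal 1 (1.57, adjusted p 0.00638) and without IR animal 2 (1.51, adjusted p 0.0177) in edgeR's quasi-likelihood test. Of 8 macrophage genes 7 were called higher. In edgeR's quasi-likelihood test without IR animal 1, 7 of 8 muscle, 6 of 8 fibroblast and 8 of 8 macrophage genes were called higher, beside 15.1% of all genes. Without IR animal 2, those called higher were 4 of 8 muscle, 2 of 8 fibroblast and 8 of 8 macrophage genes, beside 8.59% of all genes. The macrophage sum was 1242 and 1868 CPM in IR_Pra libraries, 3532 and 3827 CPM in IR libraries, and 720.5 and 735.6 CPM in control libraries. Endothelial genes summed to 341 and 314 CPM in IR_Pra libraries, 483 and 568 CPM in IR libraries, and 344 and 226 CPM in control libraries. The part of these cells in the epithelial values was not tested.

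Mesothelium, the covering of the gut's outer face, also makes simple keratins. Its marker UPK3B had 0.521 and 1.31 CPM in IR_Pra animals, 0.502 and 0.383 CPM in IR animals, and 1.11 and 1.21 CPM in control animals, and LRRN4 was at 0 in all 6 libraries. The other 2 mesothelial genes kept were higher in both IR animals than in any other library, with 0.242 and 0.317 CPM for WT1 and 1.04 and 3.17 CPM for CALB2 in IR animals. In control animals WT1 was at 0 in both and CALB2 had 0.0866 and 0.127 CPM. CALB2 is also made by enteric neurons. None of the 3 was called by edgeR's quasi-likelihood test, and 2 had an unadjusted p under 0.05, beside 30.2% of all genes. The median log2 fold change of the 3 was 4.28, or 4.85 without IR animal 1 and 3.24 without IR animal 2. WT1 and CALB2 were at or close to 0 CPM in control animals, and they passed the filter on low counts through the IR libraries. Their higher values in IR, and the count and median above, therefore follow in part from that filter. They are not a result about mesothelium. MSLN and ITLN1 were not analysed here. The summed CPM of the 6 mesothelial genes matched was 0.965 and 1.41 in IR_Pra libraries, 1.78 and 3.87 in IR libraries, and 1.37 and 1.46 in control libraries, and its part in the keratin values was not tested.

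**Figure D5:**
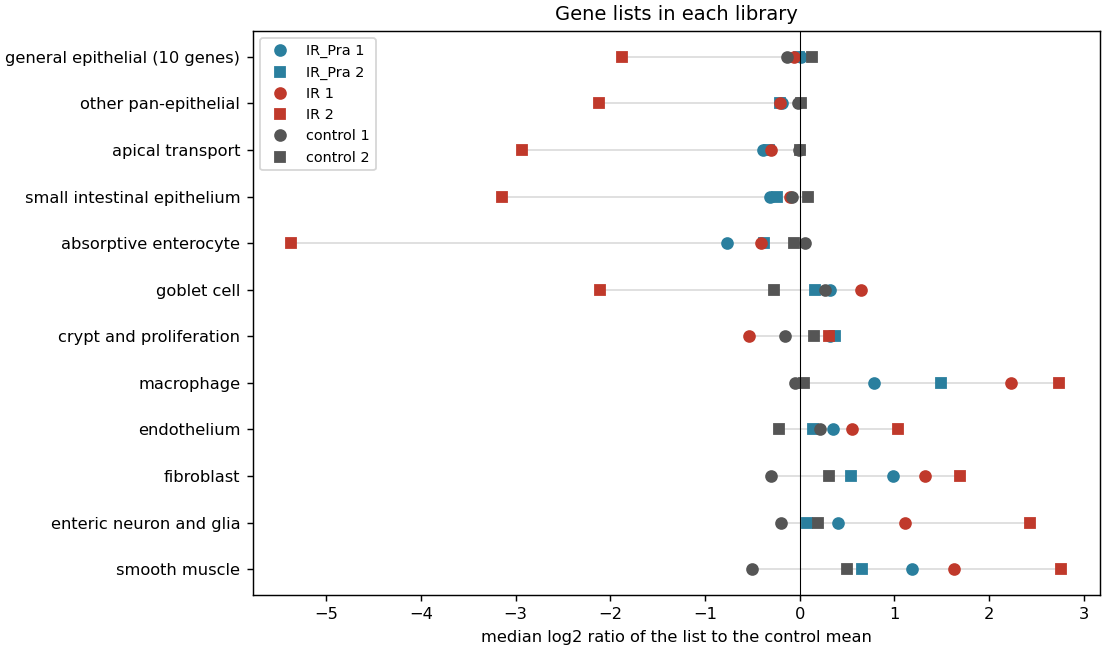
Median log2 ratio to the control mean of each gene list in each library; red marks are IR, blue IR_Pra and grey control, with circles for animal 1 and squares for animal 2. In IR animal 2 the 10 general epithelial genes are at -1.88, absorptive enterocyte genes at -5.37, crypt and proliferation genes at 0.31 and smooth muscle genes at 2.76, while in IR animal 1 the 10 general epithelial genes are at -0.05 with smooth muscle at 1.63.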

How the data were processed

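The deposited table gives, per the file headers, a read count and an FPKM value per gene and library. The count columns were checked to be whole numbers. Per the submitters' processing notes, the authors used bcl2fastq 2.20.0, Trimmomatic (version not given), HISAT2 2.1.0 and StringTie 2.1.3b, with the builds Sscrofa11.1 and GRCh38. The role of the second build, the strand setting and how counts were made are not given in the sources used here. RNA was extracted with Trizol, per the labels' protocols. All 30352 named rows matched RefSeq genes of Sscrofa11.1 by Entrez ID, the source of the coordinates. A further 24 rows without a name held 0.00906% to 0.0385% of a library's counts and were not used.

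The counts were tested with edgeR 4.0.16, and with limma 3.58.1 and DESeq2 1.42.0 as alternatives, under R 4.3.3. filterByExpr kept 18197 genes, scaling was by TMM, and 1 quasi-likelihood fit over the 3 groups and 6 libraries left 3 residual degrees of freedom and a common biological coefficient of variation of 0.431. Tests were two-sided, with Benjamini-Hochberg adjustment over all genes of a comparison. Standard errors and 95% intervals of log2 fold changes were derived from the F statistic and its degrees of freedom. Log2 ratios of a library to the control mean used a prior count of 2. Transcript length was derived from the counts and FPKM. The scripts were run on simulated data with known fold changes. A share of called genes was required there only at a spread smaller than that of these data. Each library is its own animal, so p-values measure the spread between these animals.

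Named were the 10 genes, fixed defining markers, up to 4 genes of a list with the smallest p, and the 10 genes most like the epithelial mean. Of the last, 1 is not reported here. The genes, lists and tests were chosen with earlier results of these data known. SPINT2, PRSS8, ZEB1, WT1, CALB2 and LRRN4 were named after their values were seen. Alternatives changed the scaling, the test, the filter, the libraries, the replicate block and a correction for transcript length. No reference sequence was used.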

Additional observations from a re-analysis of the deposited data

How the results depend on the processing

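Leaving out 1 library at a time gave 0 to 5342 called genes for IR against control (1103 with all libraries) and 0 to 8 of the 10 epithelial genes (1), with a median of the 10 from -1.89 without IR animal 1 to -0.063 without IR animal 2. For IR_Pra against IR it gave 0 to 3728 genes (1), 0 to 9 of the 10 (0), and a median from 0.038 to 2.00. In IR against control the 95% interval was -3.52 to 0.45 for EPCAM, whose IR animals differed 6.72-fold, and -2.22 to -0.85 for GRHL2, whose IR animals differed 1.35-fold. For IR against control, called genes numbered 475 with library size alone, 4131 with DESeq2, 403 and 543 with limma on log2(FPKM + 1) and log2(FPKM + 0.1), and 0 with the 4 libraries alone. Of the 10, 0 were called under both limma settings, with the 4 libraries alone and with the length trend removed. For IR_Pra against IR, called genes numbered 2 with library size alone, 2885 with DESeq2, 10 with limma on log2(FPKM + 0.1), 2 with no filter and 0 with the 4 libraries alone, and DESeq2 called 1 of the 10. For IR_Pra against control DESeq2 called 72 genes. The cause of these changes was not tested.

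The replicate numbers do not pair the animals: deviations of same-numbered libraries correlated at 0.0812 (IR and control), -0.11 (IR_Pra and control) and -0.0909 (IR_Pra and IR). With the replicate block, 0 genes and 0 of the 10 were called in IR against control, and 0 genes in IR_Pra against IR.

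Some estimates of genes that were not called changed sign. In IR against control, ELF3 was at -0.0486 and -0.0503 under the limma settings and -0.076 with the length trend removed, where KRT18 was at -0.078. In IR_Pra against IR, KRT18 was at 0.0035 with library size alone, 0.0237 and 0.0251 under the limma settings, and 0.12 with the length trend removed. In IR_Pra against control, KRT19 was at -0.0226 with the replicate block. With 1 library left out, IR against control ranged from -0.64 to 0.67 for ELF3, -0.29 to 0.64 for KRT18, -1.78 to 0.23 for KRT8 and -3.46 to 0.15 for SPINT1. IR_Pra against IR ranged from -0.27 to 1.04 for ELF3, -0.58 to 0.35 for KRT18, -0.0237 to 1.98 for KRT8, -0.41 to 3.2 for SPINT1 and -0.0589 to 1.88 for ST14. IR_Pra against control ranged from -0.17 to 0.32 for ESRP1, -0.15 to 0.24 for KRT18, -0.16 to 0.20 for KRT19, -0.0558 to 0.47 for KRT8, -0.50 to 0.0689 for MAL2 and -0.30 to 0.0313 for ST14.

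The older form of edgeR's quasi-likelihood fit, tried after the data were seen, called 790 genes and GRHL2 in IR against control. Of 170 refitted values of the 10 genes in IR against control, 146 kept both direction and side of the threshold, as did 150 in IR_Pra against IR and 159 in IR_Pra against control. With library size alone the median of all genes in IR_Pra against IR was 0.14.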

Other observations

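Several factors of rarer epithelial cells, each called in IR against control, were low in both IR animals. POU2F3, the defining factor of tuft cells, had 2.39 and 5.48 CPM in IR_Pra animals, 0.520 and 0.726 CPM in IR animals, and 6.25 and 7.83 CPM in control animals. Its log2 fold change in IR against control was -3.49, with an adjusted p of 0.0371 in edgeR's quasi-likelihood test. NEUROD1, a factor of enteroendocrine cells, had 1.45 and 1.84 CPM in IR_Pra animals, 0.687 and 0.185 CPM in IR animals, and 4.26 and 4.67 CPM in control animals (-3.38, adjusted p 0.0472). ATOH1, which directs cells to the secretory lineages, was at 12.7 and 8.32 CPM in IR animals, against 39.6 and 30.3 CPM in control animals (-1.73, adjusted p 0.0463). In all, 3 of 8 enteroendocrine and tuft genes and 1 of 8 goblet genes were called lower, beside 2.68% of all genes. The lists as a whole went both ways: 2 of the 8 enteroendocrine and tuft estimates and 4 of the 8 goblet estimates were positive. The goblet list had a median log2 ratio to the control mean of 0.65 in IR animal 1 and -2.11 in IR animal 2. Without IR animal 1 the estimates were -3.28 for POU2F3, -4.58 for NEUROD1 and -2.07 for ATOH1, and without IR animal 2 they were -3.76, -2.70 and -1.46, each still called by edgeR's quasi-likelihood test. These calls were also lost without either control or either IR_Pra animal.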
